A study of Mus musculus with 6 samples.

Results

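The genes described here encode 10 proteins that cut nascent RNA at its 3′ end, add or guide the addition of the poly(A) tail, and release RNA polymerase II from the gene. They were chosen by gene symbol, 10 of the 21776 genes in the deposited table, and all 10 are protein coding. *Cpsf3* and *Wdr33* encode parts of the cleavage and polyadenylation specificity factor, *Cstf2* and *Cstf3* parts of the cleavage stimulation factor, and *Nudt21* and *Cpsf6* parts of mammalian cleavage factor I. *Pcf11* and *Xrn2* encode termination factors, and *Scaf4* and *Scaf8* encode paired anti-termination factors.

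Hearts of 3 trdn-as KO mice and 3 WT mice were compared, each as 1 strand-specific total RNA library. The *Trdn-as* transcript is non-coding and runs opposite to *Trdn*, whose product triadin anchors calsequestrin at the calcium release channel of the sarcoplasmic reticulum. In the KO allele a polyadenylation cassette had been placed in the first exon of *Trdn-as* by Cas9 in embryonic stem cells, and chimeras had been backcrossed to C57BL/6. The allele was germ line and not limited to a cell type by Cre, although the series text speaks of deficiency in cardiomyocytes, the cells that express the RNA. Both KO and WT mice were listed on a C57Bl6 background, and their age and the number of stem cell clones behind the line were not given in the sources used here. The study describes the replicates as separate hearts, so the p-values below rest on the spread between hearts, 3 in each group.

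A mammalian pre-mRNA is cut a short distance after a hexamer, most often AAUAAA, which WDR33 contacts within the specificity factor and which CPSF3, the endonuclease, acts next to. CSTF2 binds U- and GU-rich RNA after the cut, NUDT21 binds UGUA before it, and the relative amounts of such factors are known to shift the choice between early and late ends of a gene. PCF11 couples the cut to termination, XRN2 degrades the RNA still attached to the polymerase, and SCAF4 with SCAF8 prevents the use of early ends.

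The choice between ends is at issue at *Trdn*, which has an early end used in heart and a late end used in skeletal muscle. The question put to the 10 genes was whether their RNA differed between hearts with and without *Trdn-as*. The last 30 bases of the annotated transcripts are printed below, 5′ to 3′ on the transcript strand, because this is where the hexamer is normally found. They are from GENCODE M21 on GRCm38, with AATAAA or ATTAAA in capitals, and they lie in 3′ untranslated sequence or at a transcript end.
Trdn, early end of an 8-exon transcript, chr10:33196288-33196317, plus strand: ctaaaatAATAAAatgtattcaaatagcta
Trdn, end of a short 9-exon transcript, chr10:33200344-33200373, plus strand: AATAAAgacAATAAAatacagaaatgataa
Trdn, late end of a 38-exon transcript, chr10:33476680-33476709, plus strand: atgaatagttaattttttattttaaatttc

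The early end held AATAAA, its first base the 23rd counted back from the annotated end with the last base as 1, the 9-exon end held 2 copies, and the late end held neither hexamer in this window. Over all 41669 ends of protein-coding transcripts in the annotation, 42.2% held AATAAA and 52.5% held either hexamer in the last 30 bases, so an end without one is common. TGTA, the DNA form of the motif that NUDT21 binds, was present in the last 100 transcript bases of each of these 3 ends, once at the early and the late end and 2 times at the 9-exon end, and in 47.3% of all ends. The hexamers and TGTA were searched on the transcript strand only, AATAAA and ATTAAA cannot match at the same position, and a match is a description of the letters and not of a site in use.

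The table holds normalised read counts, that is reads over the exons of a gene divided by a size factor of the library and rounded to whole numbers. Estimated read totals were 2.59 to 3.62 M (mega) per library. *Trdn-as*, listed as AC157017.2 (chr10:33222345-33256418, minus strand), had values of 1, 0 and 1 in the KO hearts, under the values of 2.61 to 2.98 that 3 reads are worth there, and 690, 773 and 688 in the WT hearts. *Trdn* (chr10:33080554-33476709, plus strand) had 2489, 2381 and 2551 in KO and 1541, 1541 and 1516 in WT hearts. It was one of the genes called, at a log2 fold change of 0.69 (SE 0.05, limma adjusted p = 2.35e-07). These values are sums over all exons of *Trdn* and do not separate its early from its late end. Defining cardiomyocyte markers were abundant in all 6 hearts, with a summed value of 22701 to 24062 in KO and 23459 to 28936 in WT hearts.

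Compared per length, the 10 genes covered a wide range of RNA levels in WT heart. Levels are normalised reads per kilobase of exon, with exon lengths from GENCODE M21, and 13737 tested genes with a length had a median level of 25.6 in WT hearts. Each length joins the exons of all annotated transcripts of a gene, so the order below also depends on the annotation. The joined length was 5279 bases for *Cpsf3* and 3981 for *Xrn2*, whose longest coding transcripts have 2499 and 3434 bases. *Xrn2* was highest, at 110 ± 5.08 (SD, n = 3), above 91.6% of tested genes. *Scaf8* at 77.2 ± 4.76, *Pcf11* at 76.1 ± 4.32 and *Cpsf6* at 69.7 ± 6.23 came next. The WT values of *Scaf8* and *Pcf11* overlapped, as did those of *Pcf11* and *Cpsf6*, so the order among them is not settled by 3 hearts. *Cpsf3* at 59.3 ± 2.33, *Scaf4* at 51.8 ± 1.55 and *Wdr33* at 33.5 ± 0.713 formed the middle of the range, without overlap between neighbours. The 3 lowest genes were *Cstf3* at 25.6 ± 1.54, *Cstf2* at 19.6 ± 0.499 and *Nudt21* at 15.1 ± 1.87, again without overlap between neighbours, and *Nudt21* was above 32.4% of tested genes. In KO hearts the order was the same except that *Pcf11*, at 84.9 ± 5.01, had a higher mean than *Scaf8*, at 75.3 ± 5.12. KO values of *Pcf11* and *Scaf8* overlapped, as did those of *Scaf8* and *Cpsf6*, so the order is no more settled there. These are levels of RNA from heart tissue, in which fewer cells of a type and less RNA per cell cannot be told apart.

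**Figure D1:**
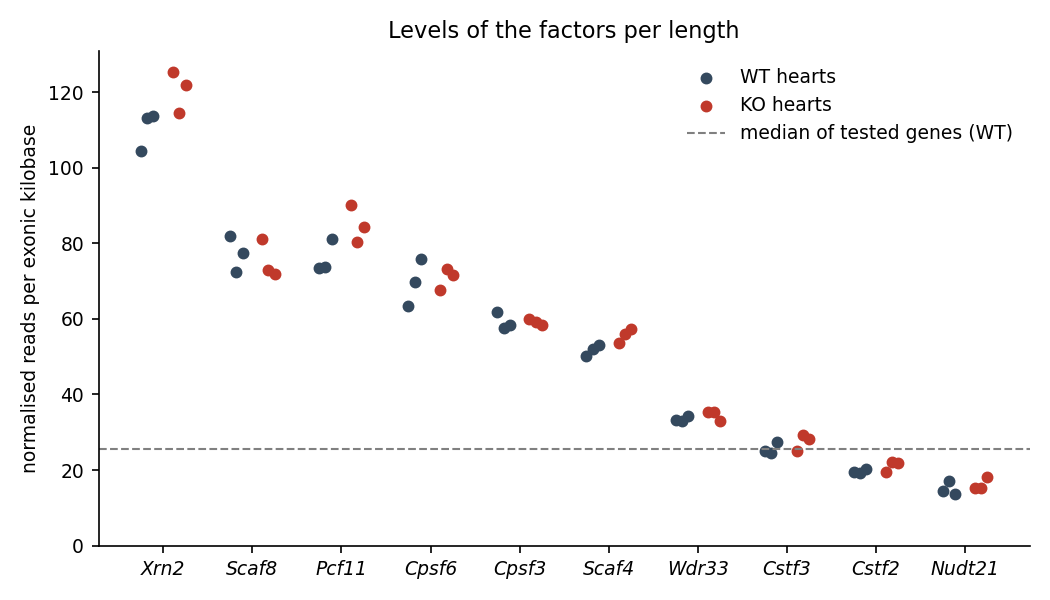
RNA levels of the 10 factors in normalised reads per exonic kilobase, with 1 point per heart for WT and KO and a dashed line at the WT median of all tested genes (25.6). *Xrn2* lies highest, *Nudt21* lowest, and the points of WT and KO hearts lie close together for each gene.

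None of the 10 genes passed the test between KO and WT hearts. In limma over 13753 tested genes, two-sided with Benjamini-Hochberg adjustment at 0.05, 0 of 10 were called, against a background of 0.0291% of genes, 4 in all, with *Trdn-as* and *Trdn* among them. That total was 1 without the mean-variance trend and 2 to 32 with 1 heart left out, with 0 factors called each time. The highest total came on removal of KO replicate 1, removal of WT replicate 3 gave 7, and removal of KO replicate 2 or of WT replicate 1 gave 2. An unadjusted p under 0.05 was reached by 1 factor, *Pcf11*, higher in KO, against 5.74% of tested genes in either direction and 2.94% higher in KO. By limma-voom, 0 factors were called as well, and 2, *Pcf11* and *Xrn2*, had an unadjusted p under 0.05, against 0.0291% and 6.04% of tested genes in that fit. The log2 fold change, KO minus WT, was above 0 for 8 genes and below 0 for 2, with a median of 0.10, beside 50.6% of all tested genes above 0 and a median of 0.00. Without KO replicate 2 the median of the factors was 0.06. All 3 KO hearts lay above all 3 WT hearts for 2 factors, *Xrn2* and *Scaf4*, against 4.64% of tested genes, and below them for 0 factors, against 4.44%.

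The precision limits what size of difference could have been missed. Standard errors of the log2 fold changes were 0.07 to 0.14 for the factors, with a median of 0.07, beside 0.12 over all tested genes. The 95% intervals of all 10 lay within 1.5-fold in either direction, with outer bounds of 0.878 for *Scaf8* and 1.31 for *Nudt21*, and those of 9 included no change. A difference inside these intervals can have been missed, and protein was not measured.

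**Figure D2:**
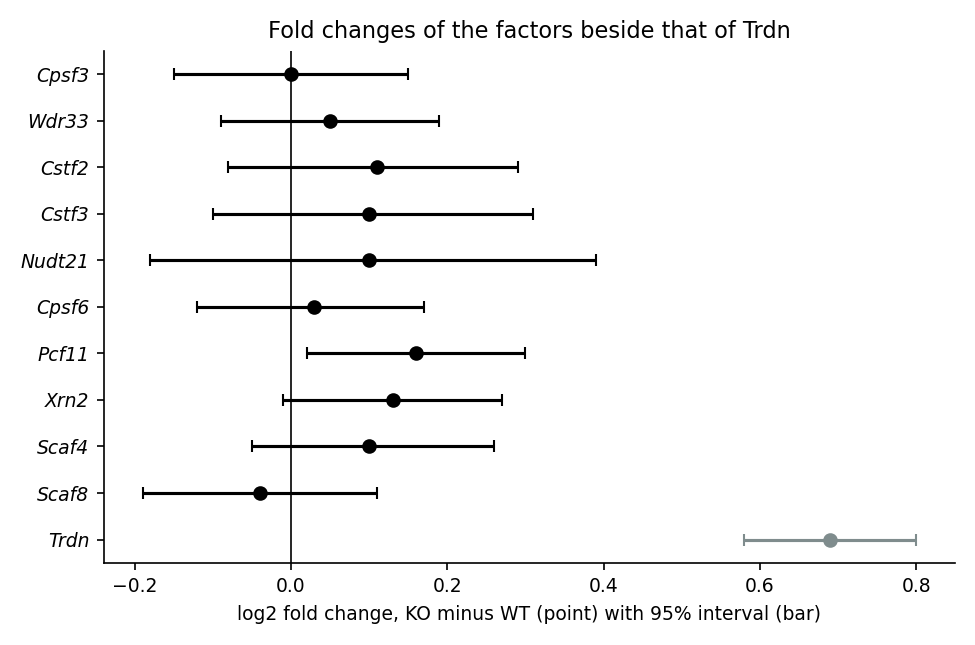
Log2 fold change, KO minus WT, of each factor and of *Trdn*, as points with 95% limma intervals as bars. The intervals of the factors span no change for all but *Pcf11*, whose lower bound is 0.02, and lie below the interval of *Trdn*, from 0.58 to 0.80.

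The nuclease and the hexamer reader of the specificity factor were close to equal in the groups. *Cpsf3* (chr12:21286358-21315056, plus strand), the endonuclease that makes the cut, was counted at 316, 312 and 308 in KO and at 327, 304 and 308 in WT hearts, in normalised reads. The KO values lay inside the range of the WT values, and the means were 312 ± 4.0 and 313 ± 12.3 (SD, n = 3). Its log2 fold change was -0.00, with a 95% interval from -0.15 to 0.15, or 0.898 to 1.11 as a fold (limma adjusted p = 0.998). *Wdr33* (chr18:31804057-31908987, plus strand), which contacts the AAUAAA hexamer, had 421, 423 and 394 in KO and 396, 393 and 409 in WT hearts. Here 2 KO hearts lay above all WT hearts and the other lay within their range. The log2 fold change was 0.05 (SE 0.07), with a fold interval of 0.937 to 1.14 (limma adjusted p = 0.961).

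The cleavage stimulation factor genes had slightly higher means in KO, with overlapping hearts. *Cstf2* (chrX:134059187-134086819, plus strand), whose protein binds GU-rich RNA after the cut, had 178, 204 and 200 in KO and 179, 176 and 185 in WT hearts. KO replicates 2 and 3 lay above every WT heart and KO replicate 1 did not. Means were 194 ± 14.0 and 180 ± 4.58, for a log2 fold change of 0.11 (SE 0.09, fold interval 0.945 to 1.22, limma adjusted p = 0.919). *Cstf3* (chr2:104590523-104665429, plus strand), the scaffold that holds the complex as a dimer, had 148, 172 and 166 in KO and 147, 144 and 161 in WT hearts. The pattern over hearts was that of *Cstf2*, with KO replicate 1 among the WT values. The log2 fold change was 0.10 (SE 0.10, fold interval 0.931 to 1.24, limma adjusted p = 0.930). Without KO replicate 1 the log2 fold change was 0.17 for *Cstf2* and 0.17 for *Cstf3*. Without KO replicate 2 these values were 0.07 and 0.06.

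The value of *Cstf2* over that of *Cstf3* was 1.20, 1.19 and 1.20 in KO and 1.22, 1.22 and 1.15 in WT hearts, an overlapping range. *Cstf2t* (chr19:31082841-31086590, plus strand), the intronless copy of *Cstf2*, was itself well measured, with 291, 260 and 297 in KO and 264, 246 and 253 in WT hearts. Its log2 fold change was 0.15 (SE 0.08, limma adjusted p = 0.860), and 1 KO heart lay within the WT range. Reads that map to both copies had been discarded upstream, so the levels of both genes can be underestimates.

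Mammalian cleavage factor I had the lowest and one of the higher levels of the 10 genes. *Nudt21* (chr8:94015496-94037031, minus strand), the subunit that reads UGUA, had 82, 81 and 97 in KO and 77, 92 and 73 in WT hearts. The hearts of the groups were interleaved. Its fold interval of 0.884 to 1.31 around a log2 fold change of 0.10 (SE 0.14) was the widest of the 10 (limma adjusted p = 0.954). *Cpsf6* (chr10:117344673-117376973, minus strand), which binds NUDT21 and contacts the rest of the machinery, had 712, 769 and 752 in KO and 667, 732 and 798 in WT hearts. All KO values lay between the lowest and the highest WT heart. Its log2 fold change was 0.03 (SE 0.07, fold interval 0.923 to 1.12, limma adjusted p = 0.981). The value of *Nudt21* over that of *Cpsf6* was 0.115, 0.105 and 0.129 in KO and 0.115, 0.126 and 0.0915 in WT hearts, with no separation of the groups.

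**Figure D3:**
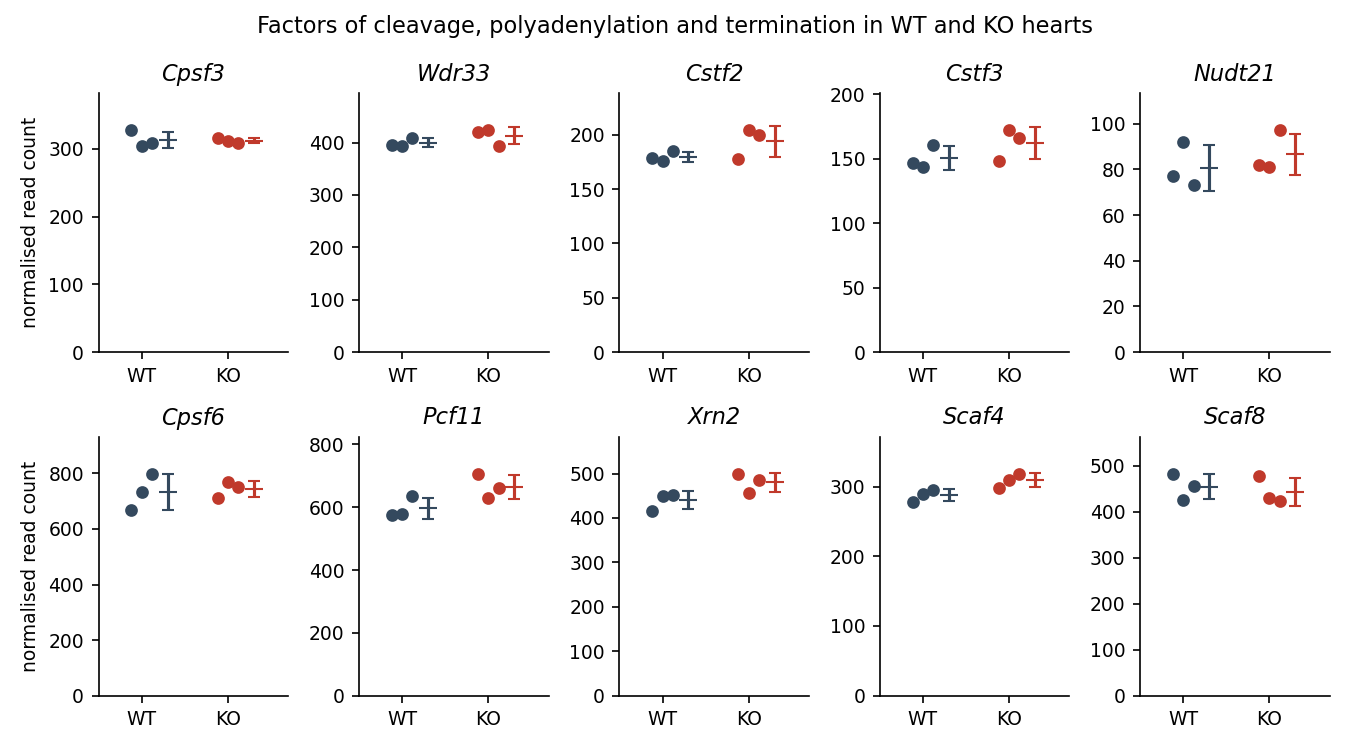
Normalised read counts of each factor, with 1 point per heart and, beside the points, the mean with SD (n = 3) for WT and KO; each panel has its own axis from 0. KO and WT hearts overlap for 8 genes, and all 3 KO hearts lie above all 3 WT hearts for *Xrn2* and *Scaf4*.

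The termination factors had the highest fold changes of the 10, and neither passed the adjusted test. *Pcf11* (chr7:92643543-92669934, minus strand) encodes a protein that binds the tail of RNA polymerase II and helps to dismantle the elongating complex. It had 706, 628 and 660 in KO and 575, 578 and 635 in WT hearts, with means of 665 ± 39.2 and 596 ± 33.8 (SD, n = 3). KO replicate 2, at 628, was below WT replicate 3, at 635, and the other KO hearts were above all WT hearts. The log2 fold change was 0.16 (SE 0.07), a 1.12-fold ratio of means with a fold interval of 1.01 to 1.23 (limma unadjusted p of 0.0281, adjusted p = 0.851). Leaving out 1 heart at a time gave a log2 fold change of 0.11 to 0.20, with an unadjusted p from 0.00739 without WT replicate 3 to 0.134 without KO replicate 1. It was also above 0.05 on removal of KO replicate 3 (0.0561), of WT replicate 1 (0.0859) or of WT replicate 2 (0.105).

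*Xrn2* (chr2:147012996-147078000, plus strand), the 5′ to 3′ exonuclease that follows the polymerase after the cut, had 499, 456 and 485 in KO and 416, 450 and 452 in WT hearts. The lowest KO heart, at 456, was just above the highest WT heart, at 452, so the groups did not overlap but nearly touched. The means were 480 ± 21.9 and 439 ± 20.2, and the log2 fold change was 0.13 (SE 0.07, fold interval 0.990 to 1.21, limma adjusted p = 0.860). Without KO replicate 2 the unadjusted p was 0.0411, and over the other hearts left out it reached up to 0.228. *Pcf11* over *Xrn2* was 1.41, 1.38 and 1.36 in KO and 1.38, 1.28 and 1.40 in WT hearts, which overlap.

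The annotated ends of the termination factors and of *Scaf4* are shown because these are the genes with the highest fold changes or with separated groups, with the end of *Nudt21*, the gene of the UGUA reader, beside them. The hexamers AATAAA and ATTAAA are in capitals as above.
Pcf11, chr7:92643543-92643572, minus strand: ATTAAAacttgtgattttttttccgtggga
Xrn2, chr2:147077971-147078000, plus strand: aaaAATAAAAATAAAgctaaactttaaaaa
Scaf4, chr16:90228957-90228986, minus strand: agggatgtttttAATAAActctattttcgt
Nudt21, chr8:94015496-94015525, minus strand: gttatttcAATAAAaatatttaaaactgaa

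Each is the end of the longest coding transcript of its gene. *Pcf11* had the variant ATTAAA at the start of the window, *Xrn2* had 2 adjoining AATAAA, and *Scaf4* and *Nudt21* had 1 each. Over the 28 annotated coding transcript ends of the 10 genes, 15 (53.6%) held AATAAA and 18 (64.3%) held either hexamer, beside the 42.2% and 52.5% of all ends given above. TGTA stood in the last 100 bases of 20 of these ends (71.4%), beside 47.3% of all ends. Transcripts of 1 gene share sequence, so these shares are descriptions. The read counts do not tell which of a gene's ends was used.

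The means of the anti-termination pair differed in opposite directions, and neither gene passed the test. SCAF4 and SCAF8 bind the polymerase tail and overlap in function, so that loss of both leads to early ends being used. *Scaf4* (chr16:90228957-90284425, minus strand) had 298, 310 and 318 in KO and 278, 289 and 295 in WT hearts. All KO hearts were above all WT hearts, with means of 309 ± 10.1 and 287 ± 8.62, and the ratio of means was 1.07. The log2 fold change was 0.10 (SE 0.07), its fold interval ran from 0.966 to 1.19 and included no change (limma adjusted p = 0.905). *Scaf8* (chr17:3114972-3198855, plus strand) had 478, 429 and 423 in KO and 482, 426 and 456 in WT hearts. Its values were interleaved, and the log2 fold change was -0.04 (SE 0.07, fold interval 0.878 to 1.08, limma adjusted p = 0.974).

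Set against each other within a heart, *Scaf4* over *Scaf8* was 0.623, 0.723 and 0.752 in KO and 0.577, 0.678 and 0.647 in WT hearts. KO replicate 1 lay below 2 of the WT hearts, so the ratio did not separate the groups. The ratios are descriptions, and no test was run on them.

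Counting was little affected by neighbouring genes. For 8 of the 10 genes no exonic base was shared with another gene on the same strand, *Cstf2* shared 0.893% of its exonic bases with Mir3112, and *Scaf8* shared 1.94% with Gm49797. Estimated reads per factor and library were 61 to 880, for a counting error of 3.37% to 12.8% (coefficient of variation), beside 1.28% to 12.4% between replicates. The first range covers counting alone and takes each read as its own molecule, which libraries without molecular identifiers do not guarantee.

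Genes with related roles in 3′ end formation and polymerase control were counted in the same fit. Of 87 genes in 8 lists, 86 were tested, and 0 were called by limma at an adjusted p under 0.05, with 5 (5.81%) at an unadjusted p under 0.05, close to the 5.74% of all tested genes. By limma-voom 0 were called and 9 had an unadjusted p under 0.05, where the share of all tested genes was 6.04%. Log2 fold changes were above 0 for 51 (59.3%) and below 0 for 35, with a median of 0.02, beside 50.6% above 0 and a median of 0.00 over all tested genes. All KO hearts lay above all WT hearts for 10 of these genes (11.6%), beside 4.64% of all tested genes. They lay below for 5 (5.81%), beside 4.44%. All fold changes given for the lists below are on the log2(value + 1) scale, KO minus WT.

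Among 14 other cleavage and polyadenylation genes, 9 had a fold change above 0 and 5 below, with a median of 0.07. The lowest was *Cpsf4*, an RNA-binding subunit of the specificity factor that sits beside WDR33 at the hexamer. It had 34, 33 and 34 in KO and 48, 52 and 39 in WT hearts, all KO hearts lower, and its log2 fold change was -0.44 (SE 0.18, limma unadjusted p of 0.0267, adjusted p = 0.851). The highest was *Clp1*, an RNA kinase and the partner of PCF11 in cleavage factor II, at 34, 45 and 37 in KO and 24, 26 and 33 in WT hearts. Every KO heart was above every WT heart, and the log2 fold change was 0.47 (SE 0.21, limma unadjusted p of 0.0346, adjusted p = 0.851). Both genes had few reads. The unadjusted p went above 0.05 when single hearts were left out, up to 0.116 for *Cpsf4* without WT replicate 2 and 0.146 for *Clp1* without KO replicate 2.

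The 13 other termination and polymerase tail factors had 8 fold changes above 0 and 5 below, a median of 0.00 and 0 genes at an unadjusted p under 0.05. They ran from *Dxo*, a decapping exonuclease, at a log2 fold change of -0.13 (SE 0.29), to *Ttf2*, a polymerase release factor, at 0.35 (SE 0.17, limma adjusted p = 0.851). *Ttf2* had 51, 57 and 56 in KO and 35, 45 and 49 in WT hearts, without overlap.

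Integrator, which cuts small nuclear and promoter-near RNA and holds a nuclease related to CPSF3, had 2 fold changes above 0 and 12 below. Its median was -0.05, from *Ints7* at -0.18 to *Ints14* at 0.05, and 0 of 14 had an unadjusted p under 0.05. Under scaling to equal totals the split was 5 above and 9 below, with a median of -0.03.

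The 18 elongation and pausing genes had 14 above 0 and 4 below, with a median of 0.05 and *Cdc73* lowest at -0.10. *Ctr9*, the scaffold of the PAF1 complex that travels with the polymerase, was highest at 254, 262 and 267 in KO and 225, 229 and 220 in WT hearts. The groups did not overlap, and the log2 fold change was 0.22 (SE 0.08, limma unadjusted p of 0.012, adjusted p = 0.807). It had an unadjusted p under 0.05 in all 15 alternative settings, from 0.00587 to 0.0457, and an adjusted p of 0.444 to 0.999.

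The 12 subunits of RNA polymerase II had 5 above 0 and 7 below, with a median of -0.04, from *Polr2j* at -0.18 to *Polr2l* at 0.67 (SE 0.35, limma adjusted p = 0.853). The value for *Polr2l* rested on low counts of 23, 25 and 20 in KO and 6, 22 and 19 in WT hearts. The 3 proteins of U1 snRNP, the particle that blocks early ends within introns, had log2 fold changes of 0.06 to 0.08, with *Snrpa* and *Snrnp70* at 0.06 and *Snrpc* at 0.08.

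All 4 tested genes of histone 3′ end formation had fold changes above 0, with a median of 0.13. *Casp8ap2*, which helps cut histone RNA, had 321, 325 and 315 in KO and 238, 297 and 305 in WT hearts (log2 fold change 0.20, SE 0.09, limma unadjusted p of 0.0332, adjusted p = 0.851). WT replicate 1 was far below the rest, and without it the log2 fold change was 0.09 and the unadjusted p 0.261. *Slbp*, the stem-loop binding protein, was highest in this list at 0.25 (SE 0.14) and *Lsm11* lowest at 0.04. *Zfp473*, at 0 to 3, was not tested.

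The m6A methyltransferase genes, 6 above 0 and 2 below with a median of 0.03, are given because the study also examined this RNA modification. *Mettl3*, the catalytic subunit, was lowest, at 91, 81 and 79 in KO and 104, 92 and 89 in WT hearts, with overlap and a log2 fold change of -0.18 (SE 0.13, limma adjusted p = 0.899). *Rbm15b*, an RNA-binding adaptor of the complex, was highest, at 184, 195 and 173 in KO and 148, 146 and 155 in WT hearts. The groups were apart, with a log2 fold change of 0.29 (SE 0.09, limma unadjusted p of 0.00472, adjusted p = 0.762). Its unadjusted p was under 0.05 in all 15 alternative settings, from 0.00303 to 0.025, with an adjusted p of 0.406 to 0.999.

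**Figure D4:**
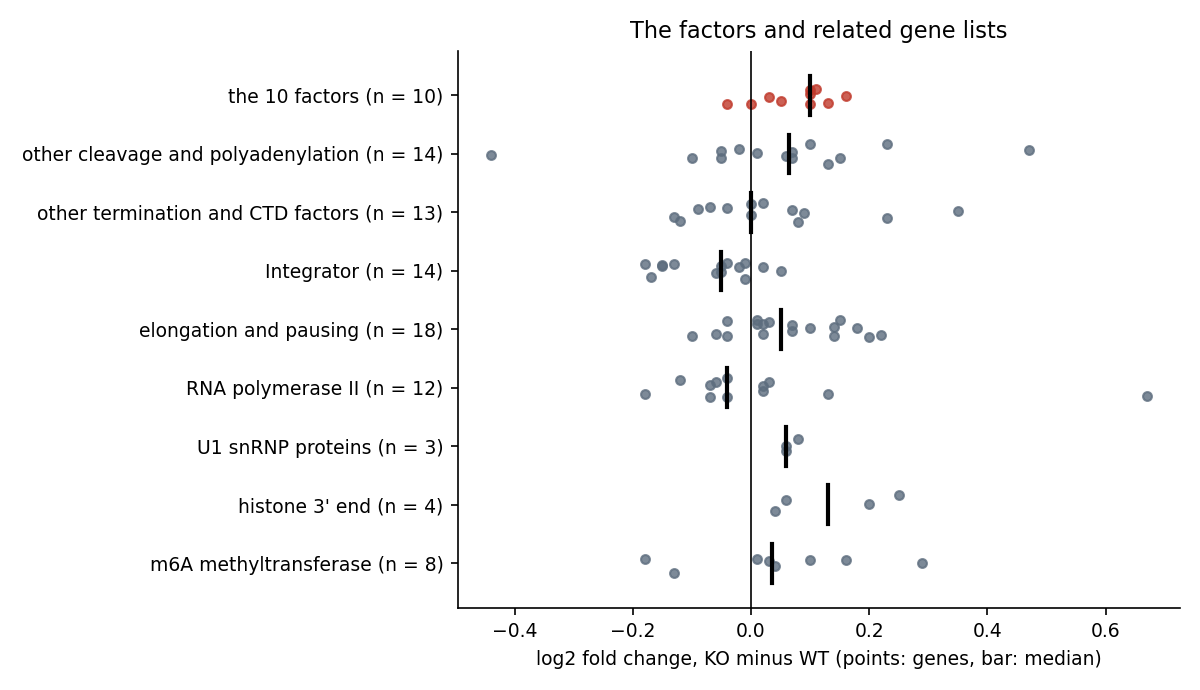
Log2 fold change, KO minus WT, of the 10 factors and of each tested gene in 8 related lists, with 1 point per gene and a vertical bar at the median of the list. The medians lie between -0.05 and 0.13, and the lowest and highest points are *Cpsf4* at -0.44 and *Polr2l* at 0.67.

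Reads past the ends of genes can show altered termination, and the table offers only an indirect view of it through features that lie there. Of protein-coding genes that start within 10 kb after the end of another on its strand, 2234 were tested, 1170 above 0 and 1064 below, with a median log2 fold change of 0.01. In limma 0 were called, and 106 (4.74%) had an unadjusted p under 0.05, beside 5.74% of all tested genes. Of non-coding features in such places, 152 were tested, 70 above 0 and 82 below, with a median of -0.02, 0 called and 7 (4.61%) with an unadjusted p under 0.05. These medians changed sign when WT replicate 3 was left out, to -0.01 and 0.04. Of the 7 non-coding features with an unadjusted p under 0.05, 2 were higher and 5 lower in KO. All KO hearts lay below all WT hearts for 14 non-coding features (9.21%) and 75 coding genes (3.36%), beside 4.44% of all tested genes. They lay above all WT hearts for 7 non-coding features (4.61%) and 123 coding genes (5.51%), beside 4.64%. For 702 tested non-coding features neither after a gene end nor inside a gene, the shares were 5.84% below and 2.85% above, with a median of -0.03.

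Genes that start soon after *Cpsf3* and *Pcf11* on their strand did not pass the test. *Iah1*, after *Cpsf3*, had 37, 28 and 41 in KO and 38, 32 and 38 in WT hearts, and its log2 fold change was -0.04 (SE 0.20). *Ankrd42*, after *Pcf11*, had a log2 fold change of 0.40 (SE 0.35) at values of 8 to 19. Neither *Iah1* nor *Ankrd42* separated the groups.

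The makeup of the hearts was compared beside these results. All 8 cardiomyocyte markers had a lower mean in KO, with log2 fold changes of -0.16 to -0.15, 0 of 8 called by limma and 5 (62.5%) with an unadjusted p under 0.05, beside 5.74% of all tested genes. Over the 6 libraries, estimated reads were 5281 to 5728 for *Myh6*, 1267 to 1360 for *Actc1* and 9053 to 11020 for *Ryr2*. Library totals ran from 2.59 to 3.62 M, a wider relative range. Whether the lower KO means come from library depth, duplicate removal or heart makeup was not tested. WT replicate 1 had the highest cardiomyocyte sum of all, 28936, and the fewest estimated reads, 2.59 M. Without this heart the median log2 fold change of the 10 factors was 0.08. Summed endothelial markers were 3547 to 4117 in KO and 3558 to 4058 in WT hearts, and fibroblast markers 2480 to 2803 and 2635 to 2851. Macrophage markers were 1055 to 1375 in KO and 1156 to 1233 in WT hearts, and the sums of every marker list overlapped between the groups. Summed fat markers were 64 in KO replicate 2, the heart whose removal gave the lowest factor median, and 14 to 26 in the other hearts. What part these shifts have in the small differences of the factors was not tested.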

How the data were processed

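Hearts of 3 KO and 3 WT mice were profiled by total RNA-seq from 500 ng of RNA with single-end reads of 75 bases. The authors trimmed reads with Trimmomatic 0.39, aligned them to GRCm38 with STAR 2.6.1d, removed duplicate, multimapping, ribosomal and mitochondrial reads (Picard 2.21.1), counted exons strand-aware with featureCounts 1.6.5 without reads of more than 1 gene, and normalised with DESeq2 1.18.1. The deposited values are a score, the count divided by the library's size factor and rounded, so raw counts were not used here and duplicates removed without molecular identifiers can lower the values of abundant genes. Size factors were estimated from the pattern of skipped whole numbers, as 1.149, 1.057 and 1.005 in KO and 0.795, 0.955 and 1.103 in WT replicates 1 to 3, and gave the estimated reads.

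Values were tested as log2(value + 1) with limma 3.58.1 in R 4.3.3 (lmFit, eBayes with trend, 4 residual and 15.4 prior degrees of freedom) over the 13753 genes with a mean of at least 10, two-sided, Benjamini-Hochberg adjusted, threshold 0.05, in place of the count test that raw counts would have allowed. The procedure was tested on simulated data, where most changes of the smallest size set were not recovered. Of 1.25-fold changes, 9.38% to 18.2% were called, and of 1.5-fold changes 60% to 68.7%, in genes drawn from all those tested. Smaller changes were not simulated, and *Pcf11*, with the largest fold change of the factors, had a ratio of means of 1.12. All groups came from the labels. Fold changes on this scale understate the change of low genes. Exon lengths and transcript sequences came from GENCODE M21, where 99.8% of the table's gene identifiers were found, 75.2% at identical coordinates, and gene coordinates are those of the table.

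The 10 factors and the lists were chosen with earlier results of these data known. Named genes were the 10 factors, *Trdn-as*, *Trdn*, *Cstf2t*, and in each list the highest and lowest tested gene and all with an unadjusted p under 0.05. *Iah1*, *Ankrd42*, *Snrnp70* and the marker sums were added as context, and 1 item is not reported here. Alternatives were scaling to equal totals, median of ratios, cyclic loess, a pseudocount of 0.1, other filters (none beyond a total of 1, or 10 in every sample), no trend, limma-voom, a replicate block, a threshold of 0.01, and leaving out each heart.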

Additional observations from a re-analysis of the deposited data

How the results depend on the processing

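No factor and no related gene was called under any alternative run. All 15 fits of the 10 factors kept the direction of each fold change in 144 of 150 cases. The exceptions were *Cpsf3*, near 0, at 0.02 under scaling to equal totals and 0.02 under limma-voom, and single hearts left out for *Cpsf3* (-0.02 to 0.03), *Cpsf6* (-0.04 to 0.09) and *Scaf8* (-0.09 to 0.01). The median of the factors was 0.13 under scaling to equal totals, 0.13 under limma-voom and 0.06 to 0.11 with 1 heart left out, lowest without KO replicate 2, while the median of all genes moved from 0.00 to 0.02 and 0.03 under the same scalings. Factors with an unadjusted p under 0.05 numbered 2 under scaling to equal totals, 2 under limma-voom, 0 without the trend and 0 to 2 with 1 heart left out. Related genes with an unadjusted p under 0.05 numbered 9 under scaling to equal totals, 9 under limma-voom, and 3 (without KO replicate 3) to 8 (without WT replicate 3) with 1 heart left out. Over all genes, calls numbered 2 with at least 10 in every sample, 1 without the trend, 2 at an adjusted p under 0.01, and 2 to 32 with 1 heart left out, 32 without KO replicate 1. The causes were not tested. Leaving out a heart moved the medians after gene ends, an alternative chosen after seeing the data, to between -0.01 and 0.01 for coding genes and between -0.07 and 0.04 for non-coding features.

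With the replicate number as a block, 4 genes and 0 factors were called; the numbers do not pair the hearts (correlations of deviations 0.05, -0.07 and -0.03), so this fit is given for completeness. With 3 hearts a group and 61 to 880 estimated reads per factor, the intervals limit the size of a difference, least tightly for *Nudt21*. RNA of a factor says nothing of its protein or of binding at *Trdn*.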

Other observations

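Non-coding features that lie inside a protein-coding gene on its strand, to which unspliced or retained intron RNA can contribute reads, were described because they had been listed beside the features after gene ends. Of 951 tested, 369 (38.8%) had a log2 fold change above 0 and 582 below, with a median of -0.07, beside 50.6% and 0.00 over all genes. In limma 0 were called, and 59 (6.2%) had an unadjusted p under 0.05, 8 higher and 51 lower in KO, beside 5.74% of all tested genes, 405 higher and 385 lower. All 3 KO hearts lay below all WT hearts for 60 features (6.31%) and above them for 16 (1.68%), beside 4.44% and 4.64% of all tested genes. The median was -0.09 under cyclic loess, 0.00 without WT replicate 3, -0.02 without KO replicate 1 and -0.15 without WT replicate 1, so its size rests on single hearts. Features within 1 gene share its reads and are not independent. Among 702 tested non-coding features neither inside a gene nor after a gene end, *Trdn-as* left out, 322 (45.9%) were above 0. Their median was -0.03, and at an unadjusted p under 0.05 in limma 19 were higher and 35 lower in KO. All KO hearts lay below all WT hearts for 5.84% of them and above for 2.85%. Some of the downward lean was thus shared by other non-coding features.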
